A study of Mus musculus with 16 samples.

Results

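The matrix metalloproteinase (MMP) and tissue inhibitor (TIMP) genes Mmp8, Mmp9, Mmp12, Mmp13, Mmp14, Mmp19, Timp1, Timp2 and Timp3 were followed in cultured mouse macrophages, as the 9 rows with these gene names among the 54532 genes of the deposited tables. Macrophages were grown in 15% fetal calf serum and CSF-1, the growth factor they depend on, from tibial marrow of wild-type C57BL/6 mice aged 2 to 3 months. In all groups CSF-1 was given at 12 ng/ml for 24 h and then at 120 ng/ml for 48 h. The series asks what the αV integrin subunit, encoded by Itgav, does in macrophages, against the background of cardiac remodeling. Adherent cells were passaged once onto plates pre-coated with fibronectin at 10 µg/ml, a matrix glycoprotein that αV integrins bind, or onto normal culture plates. Once confluent, all cells received an antibody at 10 µg/ml for 24 h, either one that neutralizes ITGAV or an IgG control, so no group went without antibody.

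The 16 polyA-selected libraries formed 4 groups of 4: fibronectin with anti-ITGAV, fibronectin with IgG, uncoated with anti-ITGAV and uncoated with IgG. Each coating comparison and each antibody comparison uses 2 of these groups, so every group enters both kinds of comparison. Whether the replicates are separate animals or cultures is not stated in the labels, and the p-values then reflect the spread among these samples alone, which could be technical. Total counts ranged from 27995035 to 43413650 per library, and a count of 0 allows up to 3 counts, which is 0.0691 to 0.107 CPM (counts scaled to a common library size) and covers counting error only. The 15 macrophage identity genes summed to 33651 to 41182 CPM in each library, and Lyz2, Csf1r and Adgre1 were among those detected. One library, fibronectin with anti-ITGAV number 3, stood apart: 3.46% of its counts were mitochondrial, compared with 1.24 to 1.53% elsewhere. Its log2 CPM also deviated most with transcript GC content (Spearman's rho across 12024 genes -0.772, against -0.399 to 0.677 in the others), and the members' called changes, antibody effects and sums are given with and without it. Bulk RNA cannot tell fewer cells of a type from less RNA per cell.

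MMPs are zinc-dependent endopeptidases that are made as inactive proenzymes and cut collagens, elastin and many other extracellular proteins once their propeptide is removed. TIMPs are secreted proteins that bind the active site of MMPs and block it, so the balance of the families is commonly taken as a guide to matrix breakdown, although RNA levels say nothing of activation. Macrophages are known for macrophage elastase (Mmp12) and for gelatinase B (Mmp9), and collagenase-3 (Mmp13) is a main interstitial collagenase of mice. Mmp8 encodes the neutrophil collagenase, Mmp14 a membrane-anchored collagenase that activates other MMPs, and Mmp19 a secreted enzyme that cuts basement membrane proteins. Timp1 and Timp2 encode soluble inhibitors, and Timp3 one that stays bound to the matrix and also blocks ADAM17.

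Mmp13, Mmp12 and Mmp8 lie in 1 cluster of MMP genes on chromosome 9, and the 250 bases before their starts are shown because Mmp13 and Mmp12 were called higher on fibronectin and Mmp8 was not. The sequences are from RefSeq on GRCm38.p6, plus strand, in lower case, with the AP-1 motif TGANTCA in capitals wherever it occurs on either strand. RefSeq has a pair of starts for Mmp12, of which the second lies in an intron of the longer transcripts.
Mmp13, chr9:7272264-7272513: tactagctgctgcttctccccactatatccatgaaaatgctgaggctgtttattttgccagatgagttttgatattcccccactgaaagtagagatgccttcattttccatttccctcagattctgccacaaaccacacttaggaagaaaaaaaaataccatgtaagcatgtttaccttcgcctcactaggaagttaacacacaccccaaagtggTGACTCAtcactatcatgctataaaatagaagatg
Mmp12 first start, chr9:7344147-7344396: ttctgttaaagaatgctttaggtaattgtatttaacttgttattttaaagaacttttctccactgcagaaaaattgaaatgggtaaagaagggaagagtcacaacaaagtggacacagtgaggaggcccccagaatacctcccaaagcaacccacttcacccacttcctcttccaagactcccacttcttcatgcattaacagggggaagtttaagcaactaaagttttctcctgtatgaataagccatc
Mmp12 second start, chr9:7347124-7347373: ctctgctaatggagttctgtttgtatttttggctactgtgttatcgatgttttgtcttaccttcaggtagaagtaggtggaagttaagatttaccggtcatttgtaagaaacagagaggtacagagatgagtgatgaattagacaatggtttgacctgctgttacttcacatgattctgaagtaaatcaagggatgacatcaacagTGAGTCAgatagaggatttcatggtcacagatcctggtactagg
Mmp8, chr9:7558179-7558428: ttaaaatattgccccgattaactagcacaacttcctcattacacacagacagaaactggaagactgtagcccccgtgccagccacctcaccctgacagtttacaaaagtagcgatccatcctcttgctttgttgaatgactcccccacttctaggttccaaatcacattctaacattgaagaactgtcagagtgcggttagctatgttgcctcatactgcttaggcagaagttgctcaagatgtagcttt
The Mmp13 window holds 1 motif whose first base is 35 bases before the start, and a TATAAA whose first base is 16 bases before it. The window of the second Mmp12 start holds 1 motif, beginning 44 bases before the start, and the windows of the first Mmp12 start and of Mmp8 hold none. In the table, 6.75% of 32851 such windows hold the motif and 7.59% hold TATAAA on the plus strand of the gene. Of the 9 genes, 7 matched the table with 8 windows, and those of Mmp14, Timp1, Timp2 and Timp3 hold no TGANTCA, while Mmp9 and Mmp19 had no entry. A match is a run of letters and says nothing of binding.

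Timp2 and Mmp12 were the most abundant of the 9 transcripts per length. The mean of the deposited FPKM (fragment counts divided by gene length and library size) over the 16 libraries was 117 ± 11.2 for Timp2, 60.9 ± 27.6 for Mmp12, 16.2 ± 2.59 for Mmp9 and 14.7 ± 2.89 for Mmp8 (SD over 16 libraries). It was 10.3 ± 1.55 for Mmp19, 6.93 ± 2.39 for Mmp13, 2.13 ± 0.695 for Timp1, 0.209 ± 0.0706 for Mmp14 and 0.0372 ± 0.0225 for Timp3. Neighbours in this order overlapped between Timp2 and Mmp12, Mmp9 and Mmp8, Mmp8 and Mmp19, and Mmp19 and Mmp13, whereas Mmp12, Mmp13 and Timp1 stood above their next lower neighbour in 16 of 16 libraries. Timp2 was above Mmp12 in 15 of 16 libraries, and Mmp9 was above Mmp8 in 9 of 16. FPKM depends on the gene length used, which the files give as 7237 bases for Mmp12 although its longest coding transcript in GENCODE M21 has 3607, and as 2673 for Mmp13, equal to its 1 coding transcript.

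**Figure D1:**
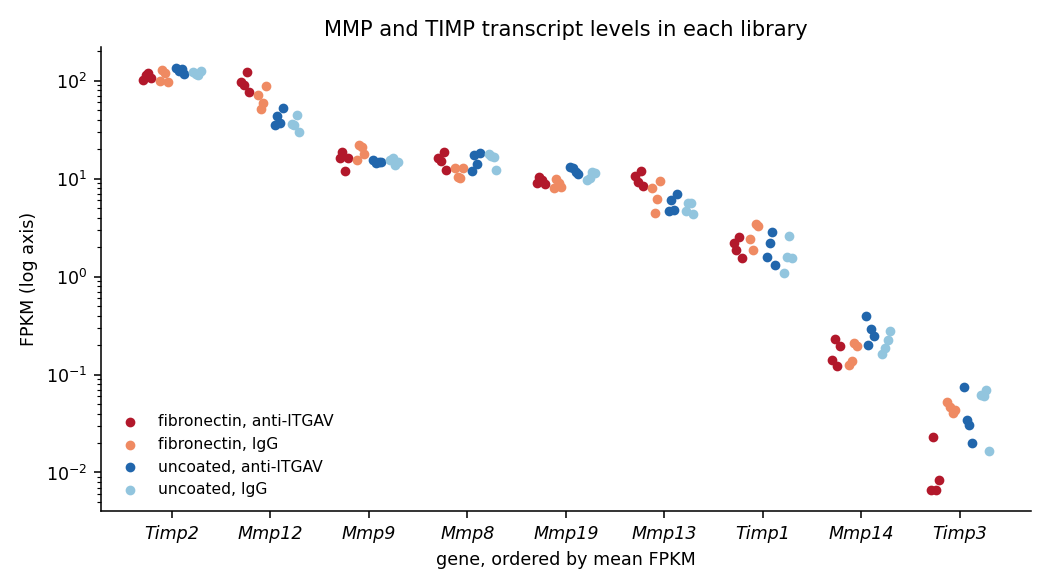
FPKM of the 9 genes on a log axis, 1 point per library, coloured by group, with genes ordered by their mean over the 16 libraries. Timp2 and Mmp12 lie highest, Timp3 lies lowest, and the Timp3 points of fibronectin with anti-ITGAV (0.00659 to 0.0233 FPKM) fall at the bottom.

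Macrophage elastase RNA was higher on fibronectin under either antibody. Mmp12 (chromosome 9, 7344381 to 7369499, plus strand, GRCm38) had 727, 657, 896 and 560.2 CPM in the libraries of fibronectin with anti-ITGAV, against 261, 319, 271 and 388 CPM in uncoated with anti-ITGAV. Under IgG it had 530.0, 381, 438 and 663 CPM on fibronectin, against 264, 257, 325 and 221 CPM on uncoated dishes. Every fibronectin library was above every uncoated library with the same antibody, and across antibodies the lowest fibronectin library fell just below the highest uncoated one. The log2 change was 1.20 ± 0.18 (SE, adjusted p = 0.00123) under anti-ITGAV and 0.91 ± 0.18 (adjusted p = 0.00788) under IgG, by edgeR's quasi-likelihood test with Benjamini-Hochberg adjustment over 15469 genes. These are folds of 2.29 and 1.88. Averaged over both antibodies the change was 1.06 ± 0.13 (edgeR adjusted p = 4.42e-05). Mmp12 passed the test under each antibody in all 16 fits that left out 1 library, and without library 3 of fibronectin with anti-ITGAV its change under anti-ITGAV was 1.07 ± 0.19 (edgeR adjusted p = 0.00508).

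Mmp13, the neighbouring collagenase gene (chromosome 9, 7272514 to 7283331, plus strand), was less abundant and followed the same order of groups. It had 29.0, 24.6, 32.0 and 22.6 CPM on fibronectin with anti-ITGAV, against 12.8, 16.1, 13.0 and 18.8 CPM on uncoated dishes with anti-ITGAV. These groups did not overlap, and the log2 change was 0.84 ± 0.20 (SE, edgeR adjusted p = 0.0188). Under IgG it had 21.9, 12.1, 17.0 and 26.1 CPM on fibronectin and 12.8, 15.1, 15.1 and 11.8 CPM on uncoated dishes. There fibronectin library 2 lay within the uncoated range, and the log2 change of 0.49 ± 0.20 did not pass (edgeR adjusted p = 0.221, 95% interval 0.075 to 0.91). Averaged over both antibodies Mmp13 rose on fibronectin by 0.66 ± 0.14 (edgeR adjusted p = 0.00412), which held in all 16 fits that left out 1 library. The call under anti-ITGAV ended without uncoated anti-ITGAV library 1 or 3 (edgeR adjusted p = 0.0634 and 0.0693), and without fibronectin anti-ITGAV library 3 it was 0.75 ± 0.21 (edgeR adjusted p = 0.0483).

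Mmp19 moved the other way and was lower on fibronectin. Mmp19 (chromosome 10, 128790910 to 128800824, plus strand) had 32.6, 36.7, 34.3 and 31.9 CPM on fibronectin with anti-ITGAV, against 47.3, 45.9, 42.5 and 40.1 CPM on uncoated dishes with anti-ITGAV. With IgG it had 29.3, 35.7, 32.5 and 29.9 CPM on fibronectin and 34.6, 36.4, 41.6 and 41.4 CPM on uncoated dishes. The groups did not overlap under anti-ITGAV, where Mmp19 fell by 0.38 ± 0.097 on the log2 scale (SE, edgeR adjusted p = 0.0295), and overlapped under IgG (log2 change -0.27 ± 0.097, edgeR adjusted p = 0.149). Averaged over both antibodies the change was -0.32 ± 0.068 (edgeR adjusted p = 0.00412) and held in all 16 fits that left out 1 library. Without library 3 of fibronectin with anti-ITGAV the change under anti-ITGAV was -0.38 ± 0.096 (edgeR adjusted p = 0.0235). The call under anti-ITGAV ended with those 8 libraries fitted alone (edgeR adjusted p = 0.0977) and without any 1 of 5 libraries, uncoated anti-ITGAV 1, 2 or 3 or fibronectin anti-ITGAV 1 or 4 (edgeR adjusted p = 0.0624 to 0.098). Mmp19 overlaps Tmem198b on the opposite strand, which had 216 to 423 counts, and as the strand setting of the counting is not given in the sources used here, reads of this pair may have been split.

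**Figure D2:**
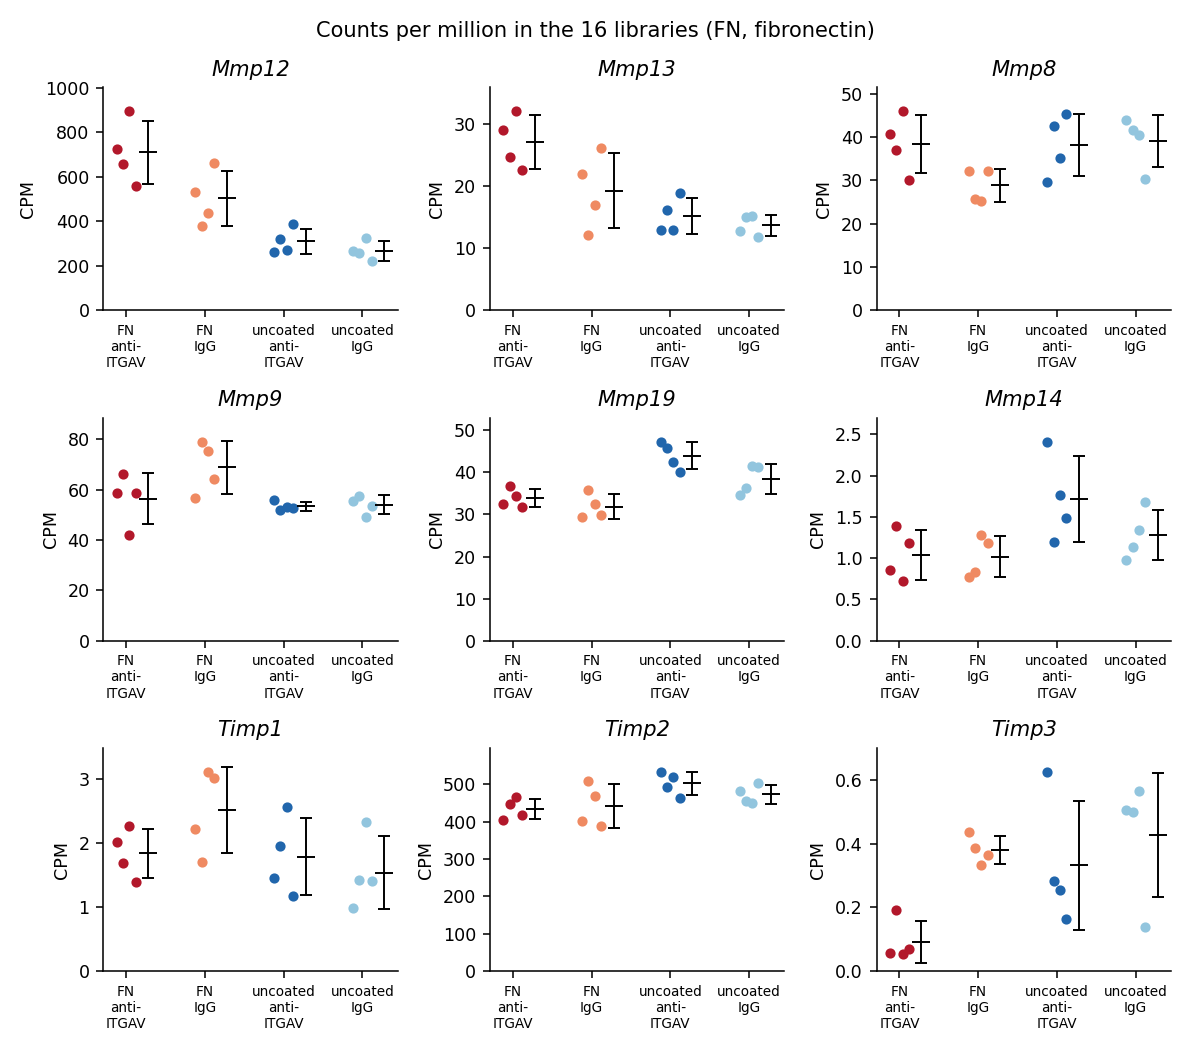
CPM of each gene in the 16 libraries (points) with mean and SD of each group of 4 (bars), on linear axes from 0, with fibronectin groups left of uncoated groups. Mmp12 is highest in fibronectin with anti-ITGAV (560.2 to 896 CPM), Mmp19 is lower in the fibronectin groups, and Timp3 is at 0.0538 to 0.191 CPM in fibronectin with anti-ITGAV.

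The collagenase Mmp8, the gelatinase Mmp9 and the membrane collagenase Mmp14 did not pass edgeR's test on the deposited counts for the coating under either antibody, although Mmp8 and Mmp9 passed in other fits. Mmp8 (chromosome 9, 7558456 to 7568485, plus strand) had 32.2, 25.8, 25.2 and 32.1 CPM on fibronectin with IgG, against 43.8, 41.5, 40.4 and 30.3 CPM on uncoated dishes with IgG. These groups overlapped, with a log2 change of -0.44 ± 0.16 (edgeR adjusted p = 0.164, 95% interval -0.77 to -0.10), and under anti-ITGAV the means were 38.4 ± 6.72 and 38.1 ± 7.08 CPM (SD, n = 4 each, log2 change 0.013). Mmp9 (chromosome 2, 164940780 to 164955850, plus strand) had 56.6, 79.2, 75.5 and 64.1 CPM on fibronectin with IgG, against 55.7, 57.7, 49.0 and 53.7 CPM on uncoated dishes with IgG. Of these fibronectin libraries 3 were above all uncoated ones, and the log2 change was 0.35 ± 0.13 (edgeR adjusted p = 0.159). Without library 3 of fibronectin with anti-ITGAV, which enters here through the shared estimate of spread, the same change had an edgeR adjusted p of 0.0233. With the GC offset edgeR called Mmp9 higher under both antibodies, by 0.24 ± 0.071 under anti-ITGAV (adjusted p = 0.0333) and 0.28 ± 0.071 under IgG (adjusted p = 0.0135). Mmp8 was called lower under IgG with the GC offset (edgeR adjusted p = 0.0162) and by limma's voom with quality weights (adjusted p = 0.0248). Mmp14 (chromosome 14, 54431612 to 54445364, plus strand) was near the bottom, with 23 to 81 counts a library and means of 1.04 ± 0.302 CPM on fibronectin and 1.71 ± 0.521 CPM on uncoated dishes under anti-ITGAV (SD, n = 4 each). Its change there was -0.72 ± 0.29 (edgeR adjusted p = 0.156), and under IgG -0.33 ± 0.29 (edgeR adjusted p = 0.696).

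None of the inhibitor genes passed edgeR's test on all 16 libraries in any comparison. By voom Timp2 was lower on fibronectin under anti-ITGAV, under IgG and on average (limma adjusted p = 0.00987, 0.0414 and 0.00076), and Timp1 was higher under IgG (limma adjusted p = 0.034). edgeR called Timp2 lower on average without fibronectin IgG library 2 (adjusted p = 0.0484). Timp2 (chromosome 11, 118301069 to 118355740, minus strand) overlaps Cep295nl on the same strand (19 to 70 counts) and had means of 435 ± 27.4 CPM on fibronectin and 503 ± 31.3 CPM on uncoated dishes under anti-ITGAV, and 442 ± 57.9 CPM on fibronectin and 473 ± 24.3 CPM on uncoated dishes under IgG (SD, n = 4 each). Its log2 change on fibronectin was -0.21 (95% interval -0.40 to -0.016) under anti-ITGAV and -0.097 (-0.29 to 0.097) under IgG, so falls larger than -0.40 on the log2 scale lie outside both intervals. Timp1 (chromosome X, 20870166 to 20874735, plus strand) had 2.22, 1.70, 3.11 and 3.02 CPM on fibronectin with IgG, against 0.979, 1.42, 2.33 and 1.40 CPM on uncoated dishes with IgG. Those groups overlapped at a log2 change of 0.72 ± 0.30 (edgeR adjusted p = 0.234), and under anti-ITGAV it was 0.044 ± 0.30 (edgeR adjusted p = 0.946). Timp1 lies inside Syn1 on the opposite strand, which had 485 to 863 counts against 33 to 112 for Timp1, so its counts are uncertain in the same way as those of Mmp19.

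Timp3 was barely detected and was lowest on fibronectin with anti-ITGAV. Timp3 (chromosome 10, 86300372 to 86349506, plus strand) had 2, 7, 2 and 2 counts on fibronectin with anti-ITGAV, against 13, 13, 12 and 12 on fibronectin with IgG. It had 21, 9, 10 and 6 counts on uncoated dishes with anti-ITGAV and 17, 19, 16 and 6 with IgG. The fibronectin groups did not overlap, the summed counts were 13 with anti-ITGAV and 50 with IgG, and their ratio after scaling was 0.247 (exact 95% interval 0.123 to 0.462, counting error only). The log2 change of -1.99 ± 0.59 for anti-ITGAV on fibronectin did not pass over all genes (edgeR adjusted p = 0.721), nor did -1.79 ± 0.59 for fibronectin under anti-ITGAV (edgeR adjusted p = 0.0879). Leaving out library 3 of fibronectin with anti-ITGAV, these were -1.80 ± 0.66 and -1.59 ± 0.67. Timp3 exceeded the filter's 0.285 CPM in 8 of 16 libraries and in 0 of the 4 of fibronectin with anti-ITGAV, so it was tested through the other groups alone. An adjusted p of 0.0429 (edgeR, log2 change -2.42) without library 2 of that group, which held 7 of its 13 counts, is therefore no support for a difference. The ratio of summed counts and its interval are no support either, as they leave out the spread between libraries. The other 8 genes exceeded the filter in all 16. Timp3 lies inside Syn3 on the opposite strand, which had 2 to 18 counts.

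For the coating, then, edgeR called 2 of the 9 genes higher (Mmp12 and Mmp13) and 1 lower (Mmp19) under anti-ITGAV, against 2.84% and 2.83% of the 15469 genes tested. Under IgG it called 1 higher (Mmp12) and 0 lower, against 2.37% and 1.42% of all genes. Averaged over both antibodies it called the same 3 genes as under anti-ITGAV, against 6.58% of all genes higher and 5.26% lower. The median log2 change of the 9 genes was 0.013 under anti-ITGAV and -0.097 under IgG, beside 0.00781 and 0.00200 over all genes tested. Without library 3 of fibronectin with anti-ITGAV edgeR called 3 of the 9 under anti-ITGAV, 2 under IgG and 4 on average, Mmp9 being the addition, and it called 6.17%, 8.4% and 15.7% of all genes in these comparisons. Other fits also called more. Under anti-ITGAV the GC offset called 4 of the 9, adding Mmp9, with 12.6% of all genes, and limma's voom with quality weights called 4, adding Timp2, with 14%. Under IgG a fit with an offset for each library's GC trend called 5 of the 9 (Mmp8 and Mmp19 lower, Mmp9, Mmp12 and Mmp13 higher) where it called 11.1% of all genes, and voom called 6 (Mmp8, Mmp19 and Timp2 lower, Mmp12, Mmp13 and Timp1 higher) where it called 16%. Averaged over both antibodies these fits called 5 and 6 of the 9, with 21.9% and 26.7% of all genes.

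**Figure D3:**
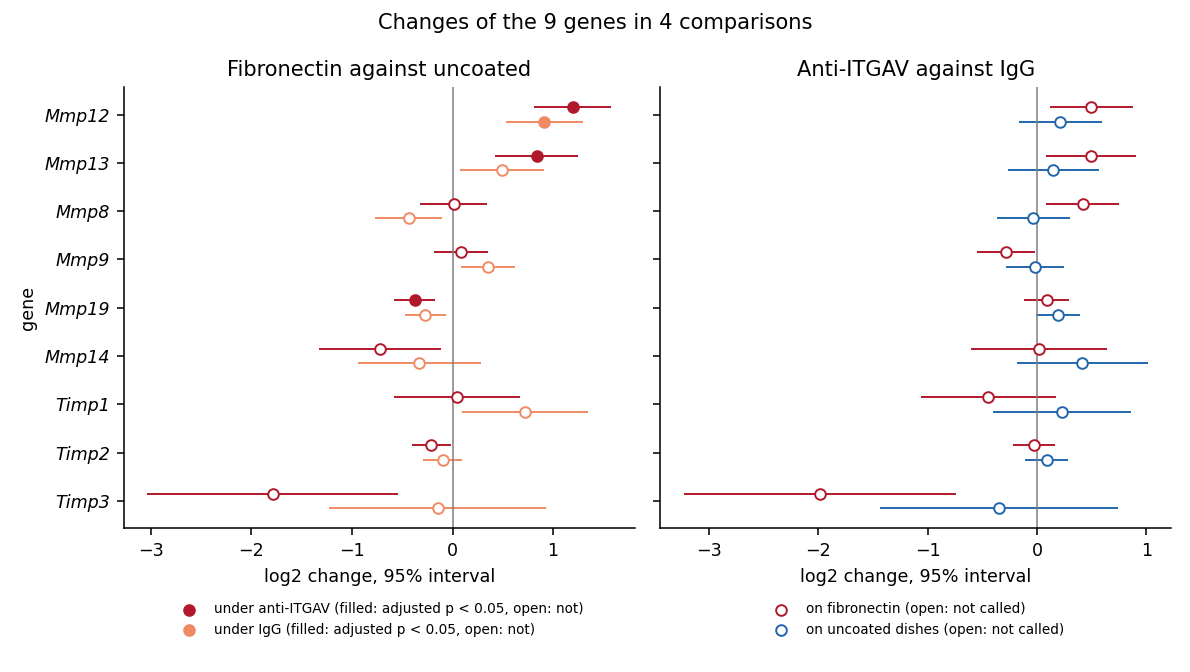
Log2 change with its 95% interval from edgeR's fit for the 9 genes, fibronectin against uncoated dishes on the left and anti-ITGAV against IgG on the right. Filled points passed an adjusted p of 0.05: Mmp12, Mmp13 and Mmp19 under anti-ITGAV and Mmp12 under IgG, and none for the antibody.

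Mmp12 was the largest part of the MMP sum in every group. The FPKM of the 6 MMP genes summed to 148 ± 22.0 on fibronectin with anti-ITGAV, 115 ± 16.9 on fibronectin with IgG, 90.7 ± 11.3 on uncoated dishes with anti-ITGAV and 83.5 ± 7.90 on uncoated dishes with IgG (SD, n = 4 each). Mmp12 made up 65.1 ± 3.56%, 58.7 ± 5.52%, 46.2 ± 3.11% and 43.5 ± 3.30% of these sums in the same order of groups. With Mmp27 and the other listed MMP genes added to the sum, its share was 60.2%, 54.0%, 40.9% and 38.0%. The 3 TIMP genes summed to 112 ± 8.14, 114 ± 15.0, 129 ± 7.39 and 122 ± 5.23 FPKM, of which Timp2 was 97.5% to 98.5% in every group mean. The ratio of the MMP to the TIMP sum was 1.32 ± 0.154 and 1.03 ± 0.276 on fibronectin with anti-ITGAV and IgG, and 0.708 ± 0.131 and 0.689 ± 0.0901 on uncoated dishes. It ran from 1.14 to 1.45 in the libraries of fibronectin with anti-ITGAV, above all uncoated libraries (0.571 to 0.88), and from 0.755 to 1.37 in those of fibronectin with IgG, which overlapped both. In fibronectin with anti-ITGAV without its library 3, the MMP sum was 139 ± 14.4 FPKM and the ratio 1.28 ± 0.159 (SD, n = 3). The sums are described without a test, and the MMP sums, shares and ratio depend on the 7237 bases given as the length of Mmp12.

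The antibody comparison asks what neutralizing αV did to these genes on each coating, and none of the 9 passed edgeR's test on the deposited counts. On fibronectin Mmp12 had the values above, with a mean of 709.9 ± 141 CPM under anti-ITGAV, against 503 ± 123 CPM under IgG (SD, n = 4 each), and a log2 change of 0.50 ± 0.18 (edgeR adjusted p = 0.721, 95% interval 0.12 to 0.88). Mmp13 and Mmp8 had log2 changes of 0.49 ± 0.20 and 0.42 ± 0.16 there, and Mmp9 -0.29 ± 0.13 (each at an edgeR adjusted p of 0.721), with overlapping groups in all of these. Leaving out library 3 of fibronectin with anti-ITGAV, the changes of Mmp12, Mmp13, Mmp8 and Mmp9 were 0.37 ± 0.19, 0.40 ± 0.21, 0.32 ± 0.16 and -0.17 ± 0.10 (edgeR adjusted p = 1 for all). On uncoated dishes the changes of Mmp12, Mmp13, Mmp8 and Mmp9 were 0.21, 0.15, -0.033 and -0.017 (edgeR adjusted p = 0.988 to 0.991). Mmp19 was 0.088 ± 0.097 on fibronectin and 0.19 ± 0.096 on uncoated dishes. edgeR called 0.0129% of all genes on fibronectin and 0.0129% on uncoated dishes, which is 2 genes each, and DESeq2 called 19 on fibronectin and 28 on uncoated dishes with 0 of the 9. At an unadjusted p under 0.05, edgeR had 720 genes on fibronectin and 470 on uncoated dishes.

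Averaged over both coatings, anti-ITGAV left Mmp12 and Mmp13 at 0.36 ± 0.13 and 0.32 ± 0.14 on the log2 scale (an edgeR adjusted p of 1 for both), where 0.0711% of all genes were called and 555 were under an unadjusted p of 0.05, while DESeq2 gave 51 calls with 0 of the 9. With the GC offset the same changes were 0.37 ± 0.058 for Mmp12 (edgeR adjusted p = 0.00484) and 0.33 ± 0.071 for Mmp13 (edgeR adjusted p = 0.0491), and 0.323% of all genes were called. On the single coatings the values shifted in opposite directions: with the GC offset the change of Mmp12 was 0.30 ± 0.082 on fibronectin and 0.44 ± 0.082 on uncoated dishes, and that of Mmp13 0.34 ± 0.099 and 0.33 ± 0.10, none past the threshold (edgeR adjusted p = 0.0648 to 0.635). Without library 3 of fibronectin with anti-ITGAV, edgeR's changes on the counts as deposited were 0.29 ± 0.13 and 0.28 ± 0.14, both with an adjusted p of 1. The difference between the antibody's effects on the coatings was 0.28 ± 0.25 for Mmp12, 0.34 ± 0.28 for Mmp13, 0.45 ± 0.22 for Mmp8 and -1.64 ± 0.78 for Timp3 (fibronectin minus uncoated, edgeR adjusted p = 0.646 to 0.653). With the GC offset the difference was -0.14 ± 0.12 for Mmp12 and 0.00767 ± 0.14 for Mmp13, and without library 3 of fibronectin with anti-ITGAV it was 0.15 ± 0.26 and 0.25 ± 0.29, with 0.35 ± 0.22 for Mmp8 and -1.45 ± 0.85 for Timp3. edgeR called 0% of all genes for this difference, with 614 under an unadjusted p of 0.05, while by DESeq2 it was 1 gene and none of the 9.

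The transcripts of Mmp12, Mmp13 and Mmp8 are poor in G and C, and their levels followed each library's GC trend within groups. Their GC content was 40.3%, 41.7% and 43.4%, below the lower quartile of the tested genes (44.5%, median 49.3%), whereas Mmp9 had 55.2% and Mmp14 54.3%. Over the 16 libraries, with each group's mean taken out, log2 CPM had a Pearson correlation with the library's GC trend of -0.889 for Mmp12, -0.872 for Mmp13 and -0.853 for Mmp8, and of 0.742 for Mmp9 and 0.671 for Timp2. These points share library, depth and the GC trend itself, and are a description. Library 3 of fibronectin with anti-ITGAV, with the most negative trend, was the highest of the 16 for Mmp12, Mmp13 and Mmp8 and the lowest for Mmp9. The coating's effect on Mmp12 with the GC offset was 0.88 ± 0.083 under anti-ITGAV (edgeR adjusted p = 2.03e-06) and 1.02 ± 0.083 under IgG (edgeR adjusted p = 5.88e-07), and on Mmp13 0.58 ± 0.10 and 0.57 ± 0.10 (edgeR adjusted p = 0.000651 and 0.00085).

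Mmp12 and Mmp13 varied together across the libraries. Their log2 CPM had a Pearson correlation of 0.945 over the 16 libraries, 0.922 with group means taken out, and 0.544 with the GC trend taken out as well. Both genes had higher means on fibronectin, although single groups overlapped, so the first value holds the coating's effect too. Among 9805 tested genes of at least 5 CPM, those most like Mmp12 were Ell2, an elongation factor gene, Spp1, which encodes osteopontin, and Dhrs9, a retinol dehydrogenase gene (Pearson correlation 0.970, 0.963 and 0.958). Within groups and with the GC trend taken out these were 0.101, -0.0472 and 0.152. Most like Mmp13 were Dhrs9, Camk2d, a calcium/calmodulin kinase gene, and Mmp12 itself (0.965, 0.956 and 0.945), and most like Mmp19 were Dnase1l1, the sorting receptor gene Sort1 and the platelet factor gene Pf4 (0.948, 0.922 and 0.921). Within groups and with the GC trend taken out, Mmp13 had 0.575 with Dhrs9 and 0.283 with Camk2d, and Mmp19 had 0.800 with Dnase1l1, 0.198 with Sort1 and 0.582 with Pf4. Over the 15 libraries without library 3 of fibronectin with anti-ITGAV, Mmp12 and Mmp13 correlated at 0.929, and at 0.533 within groups with the GC trend taken out, while Mmp19 and Sort1 had 0.500 on the second measure.

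**Figure D4:**
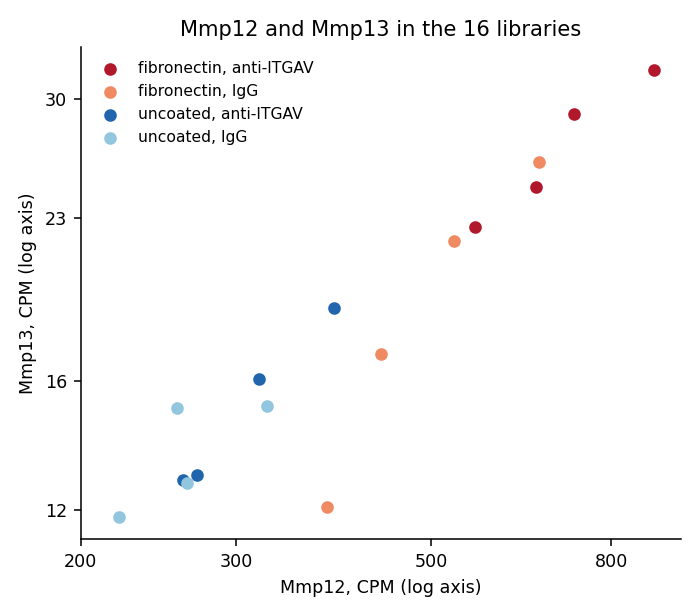
Mmp13 against Mmp12 in CPM, both axes log, 1 point per library coloured by group. The libraries run along 1 line from uncoated with IgG at the lower left (221 to 325 CPM of Mmp12) to fibronectin with anti-ITGAV at the upper right, with fibronectin IgG library 2 below it (381 CPM of Mmp12 and 12.1 CPM of Mmp13).

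The neighbours of Mmp12 and Mmp13 in the chromosome 9 cluster were mostly undetected. In order along the chromosome the cluster holds Mmp13, Mmp12, Mmp1b, Mmp3, Mmp1a, Mmp10, Mmp8, Mmp27, Mmp20 and Mmp7 within 427 kb. Mmp1b, Mmp3, Mmp1a, Mmp20 and Mmp7 had 0 counts in all 16 libraries, among them Mmp1b, which overlaps the end of Mmp12 on the opposite strand. Mmp10 had 0 to 14 counts a library. Mmp27, which lies 2.91 kb past the end of Mmp8, had 496 to 1141 counts and a mean of 10.1 FPKM (6.61 to 13.9), above Mmp13 at 6.93 FPKM. Of 18 other MMP and TIMP genes listed, 6 were tested and 0 were called in any of the 7 comparisons, with a median log2 change on fibronectin of -0.30 under anti-ITGAV and 0.077 under IgG.

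**Figure D5:**
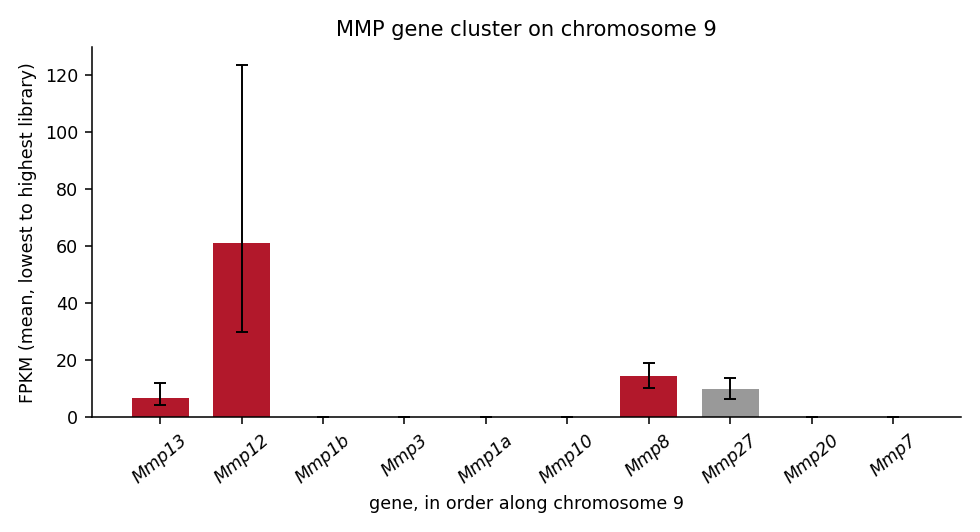
Mean FPKM over the 16 libraries (bars) with the lowest and highest library (lines) for the MMP genes in their order along chromosome 9, red for the members described here and grey for Mmp27 and the rest. Mmp12 stands at 60.9 FPKM, Mmp8 at 14.7, Mmp27 at 10.1 and Mmp13 at 6.93, and the other 6 genes at or near 0.

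Genes whose products activate MMPs or dock them at the cell surface changed with the coating beside Mmp12 and Mmp13. Of 16 tested genes for activators, inhibitors and docking proteins, 3 rose and 2 fell on fibronectin under anti-ITGAV (median -0.14), and 2 rose and 0 fell under IgG (median 0.00332). Over all genes tested, 2.84% rose and 2.83% fell under anti-ITGAV, and 2.37% rose and 1.42% fell under IgG. These shares also stand beside the counts of the lists that follow. Plau, which encodes urokinase, the protease that makes plasmin and so starts proenzyme activation, averaged 356 CPM on fibronectin and 139 CPM on uncoated dishes under anti-ITGAV, a log2 change of 1.36 ± 0.16 (edgeR adjusted p = 0.000123). Its receptor gene Plaur rose by 0.90 ± 0.14 (edgeR adjusted p = 0.00164). Lcn2, whose product is known to bind gelatinase B, fell by 0.58 ± 0.11 on fibronectin under anti-ITGAV (edgeR adjusted p = 0.00484), and Ctsg, the cathepsin G gene, by 0.74 ± 0.16 (edgeR adjusted p = 0.0121). Lcn2 was also the 1 gene of this list called for the antibody on fibronectin (log2 change -0.83 ± 0.11, edgeR adjusted p = 0.00436), beside a change of -0.29 in Mmp9 that did not pass. Lcn2 and Ctsg are also neutrophil granule genes, and of 16 neutrophil markers 8 fell on fibronectin under anti-ITGAV and 2 for the antibody on fibronectin.

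Related proteases and the substrates of these enzymes moved in both directions. Of 11 tested ADAM and ADAMTS genes 0 rose and 1 fell under anti-ITGAV and 1 rose and 1 fell under IgG (medians 0.024 and -0.16): Adam8 rose under IgG by 0.68 ± 0.15 (edgeR adjusted p = 0.0135), and Adam19 fell by 0.96 ± 0.26 under anti-ITGAV (edgeR adjusted p = 0.0365). Without library 3 of fibronectin with anti-ITGAV, 2 of 12 rose and 0 fell under anti-ITGAV, where 6.17% of all genes were called. The fall of Adam19 under anti-ITGAV was thus not called in that fit. Adam19 was also the gene that fell under IgG (log2 change -0.99 ± 0.26, edgeR adjusted p = 0.0424). Averaged over both antibodies it had -0.97 ± 0.18 (edgeR adjusted p = 0.00182), at 1.11 CPM on fibronectin and 2.18 CPM on uncoated dishes. Under IgG 1 of 12 rose and 1 fell without that library, where 8.4% of all genes were called. Of 14 cathepsin and collagen uptake genes 0 rose and 1 fell under anti-ITGAV (median -0.16), the legumain gene Lgmn at -0.38 ± 0.090 (edgeR adjusted p = 0.0174), and 0 of 14 passed under IgG (median -0.023). Of 17 matrix substrate genes 2 rose and 2 fell under anti-ITGAV, and 2 rose and 3 fell under IgG (medians -0.46 and -0.15). Spp1 rose by 0.91 ± 0.17 (edgeR adjusted p = 0.00584) and Fn1, which encodes fibronectin, by 0.40 ± 0.11 (edgeR adjusted p = 0.0492) under anti-ITGAV, while Thbs1, the thrombospondin gene, and Col1a2, a collagen gene, had -1.36 and -0.99 (edgeR adjusted p = 3.90e-06 and 0.00501). Col1a2 was low there, at 2.37 CPM on fibronectin and 4.72 CPM on uncoated dishes. It is also counted among the fibroblast markers below. Of 20 transcription factor and cytokine genes known to regulate MMP genes, 4 rose and 0 fell under anti-ITGAV and 5 rose and 0 fell under IgG (medians 0.080 and 0.20). Ets2 rose by 1.00 ± 0.14, the cytokine gene Tnf by 0.81 ± 0.16, Etv5 by 0.67 ± 0.13 and Fos, an AP-1 subunit, by 0.47 ± 0.11 under anti-ITGAV (edgeR adjusted p = 0.000585, 0.00631, 0.00596 and 0.0178). For the antibody on uncoated dishes 1 of the 20 rose and 0 fell, where 0.0129% of all genes were called. It was Fos, at 0.74 ± 0.11 (edgeR adjusted p = 0.0264). Averaged over both coatings Fos was again called, at 0.64 ± 0.078 (edgeR adjusted p = 0.001), where 0.0711% of all genes were. On fibronectin 0 of the 20 passed for the antibody.

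Neutrophil markers were detected at widely differing levels, and they moved with the groups. S100a9, a neutrophil calgranulin gene, averaged 179.9 FPKM over the 16 libraries, beside 117 FPKM for Timp2. In CPM, which is not per length, S100a9 averaged 66.7 and Timp2 435 on fibronectin with anti-ITGAV. Other markers were lower per length, such as Lcn2 at 8.21, Elane at 5.14 and Ctsg at 3.04 FPKM. Neutrophils are a known source of Mmp8 and Mmp9, and 14 other neutrophil markers summed to 290.4 CPM (245 to 389) on fibronectin with anti-ITGAV, 419 (360 to 464) on fibronectin with IgG, 394 (369 to 419) on uncoated dishes with anti-ITGAV and 500.2 (481 to 514) on uncoated dishes with IgG, none of them at 0. Library 3 of fibronectin with anti-ITGAV held the 389 CPM, and the other 3 averaged 257 CPM (245 to 268). Of 16 tested markers, Mmp8 and Mmp9 included, 0 rose and 8 fell on fibronectin under anti-ITGAV (10 without that library) and 0 rose and 1 fell under IgG (medians -0.50 and -0.24). Csf3r, for example, had -0.79 and -0.73 (edgeR adjusted p = 0.00208 and 0.00366), and Mpo -0.74 under anti-ITGAV (edgeR adjusted p = 0.00633), while Mmp8 and Mmp9 had 0.013 and 0.081 there. For the antibody on fibronectin 0 rose and 2 fell (median -0.54, beside 0.000108 over all genes), the granule genes Lcn2 and Ltf, which were the only 2 of all genes that edgeR called there. Without library 3 of fibronectin with anti-ITGAV 5 fell, and edgeR called 5 of 15765 genes tested in that fit. On uncoated dishes 0 of 16 passed for the antibody (median -0.19), and averaged over coatings 4 fell. The fibroblast markers were low: the 11 genes summed to 15.4 CPM on fibronectin with anti-ITGAV and 24.3 CPM on uncoated dishes with IgG, with the other groups between, and had 1 at 0 in all libraries and 8 under 1 CPM, and 0 of 7 tested rose while 1 fell under anti-ITGAV and 2 under IgG (medians -0.68 and -0.56). The 9 osteoclast markers other than Mmp9 and Mmp14 summed to 155, 143, 160.4 and 149 CPM, and 3 of them were under 1 CPM. Of 11 listed osteoclast markers 9 were tested, Mmp9 and Mmp14 included. Among those tested, 0 rose and 1 fell under anti-ITGAV (Nfatc1, -0.34, edgeR adjusted p = 0.0187). Under IgG 1 rose (the fusion gene Dcstamp, 1.46, edgeR adjusted p = 0.0026), and the medians were 0.26 and 0.21. Of 15 macrophage identity genes 2 fell under anti-ITGAV and 1 under IgG (medians -0.21 and -0.00249), among them Mertk with -0.38 and -0.46 (edgeR adjusted p = 0.0121 and 0.00418). Of 12 mitochondrial transcripts 0 passed in these comparisons (medians 0.50 and -0.10). The mitochondrial median under anti-ITGAV without library 3 of the fibronectin group was -0.034. The part of these markers in the members' values was not tested.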

How the data were processed

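Poly(A) RNA of 16 bone marrow macrophage libraries was read as pairs, per the labels' protocols. The authors deposited whole-number counts per gene, and FPKM values for the same 54532 genes. The submitters' processing notes list featureCounts, HISAT2 and StringTie as tools and GRCm38.p6 and mm10 as builds. Versions, strand setting and the handling of shared reads were not given in the sources used here. Gene length in bases, an annotation value in the deposited tables, served only to read FPKM, which equalled count over length and 1 constant per library.

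The deposited counts went unchanged into edgeR 4.0.16 (R 4.3.3): filterByExpr (minimum count 10) kept 15469 genes, with TMM factors, 1 mean per group over all 16 libraries, the robust quasi-likelihood test and Benjamini-Hochberg adjustment at 0.05. CPM use TMM-scaled totals. Intervals are edgeR's estimate ± SE times the t quantile. Alternatives were DESeq2 1.42.0, limma 3.58.1 (voom with quality weights, and log2(FPKM + 1) and log2(FPKM + 0.1) for genes of at least 1 FPKM in 4 libraries), other scalings and filters, a GC offset (smooth trend of log2 CPM on transcript GC, span 0.3), a replicate block and leaving out each library. Taking the GC trend out of correlations, and leaving library 3 of fibronectin with anti-ITGAV out of sums, lists and correlations, were chosen after seeing the data. The scripts were tested on simulated counts. Chi-square over degrees of freedom between replicates was 5.11 to 181.6, so no pair agreed within sampling noise.

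The members and the 11 other gene lists (other MMP and TIMP genes; activators, inhibitors and docking proteins; ADAM and ADAMTS; cathepsins and collagen uptake; matrix substrates; regulators; neutrophil, macrophage, fibroblast and osteoclast markers; mitochondrial transcripts) were chosen with earlier results of these data known. All members are named, and of each list up to 4 called genes with the smallest adjusted p, and the 3 genes most correlated with each called member over the 16 libraries.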

Additional observations from a re-analysis of the deposited data

Results flagged for a closer look

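In 36 groups of 4 values (9 genes in 4 groups), 1 library lay far from the other 3 by Dixon's ratio of gap to range in 2 groups, and chance gives about 1 in 20. Both were of Timp3. On fibronectin with anti-ITGAV, library 2 had 0.191 CPM against 0.0538 to 0.0693 CPM in the other 3 (ratio 0.887). On uncoated dishes with IgG, library 4 had 0.138 CPM against 0.499 to 0.565 CPM in the other 3 (ratio 0.847). These rest on 7 against 2 counts and on 6 against 16 to 19 counts.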

How the results depend on the processing

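Across the 9 genes, 7 comparisons and all settings, 31 of 1701 log2 changes had the opposite sign to the reported one, and none of these passed the threshold in either fit. Mmp12 on fibronectin was called under each antibody and for their mean in every setting run. The number of the 9 genes called was 1 for fibronectin under IgG, 6 with voom, 5 with the GC offset, and 1 to 2 with 1 library left out (2 without fibronectin IgG library 2 or fibronectin anti-ITGAV library 3). Under anti-ITGAV it was 3, 4 with voom, 4 with the GC offset, 2 without a filter on low counts, 1 by limma on log2(FPKM + 1) without a filter, and 1 to 4 with 1 library left out (1 without uncoated anti-ITGAV library 1 or 3). For the mean of both antibodies it was 3, 6 with voom, 5 with the GC offset, and 3 to 4 with 1 library left out. For anti-ITGAV averaged over coatings it was 0 and 2 with the GC offset. The cause was not tested. No pairing of numbered replicates was seen. Deviations of libraries with the same number correlated at -0.646 to 0.573 over 24 pairs, mean -0.0674. For 72 pairs with other numbers this was -0.635 to 0.608, mean 0.0195. The deviations also hold each library's GC trend, so they cannot tell whether libraries shared an animal or culture. With the replicate block 1, 2 and 3 genes were called for fibronectin under IgG, under anti-ITGAV and on average, as Mmp19 under anti-ITGAV had an adjusted p of 0.0531 (edgeR), and 0 for the antibody.

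Over all genes, fibronectin under IgG gave 586 calls, 1059 by DESeq2, 2481 by voom, 1711 with the GC offset, 360 with the replicate block, 309 on unfiltered log2(FPKM + 1), and 253 to 1325 with 1 library left out. Under anti-ITGAV it gave 876 calls, 1601, 2173, 1943, 600 and 510 in those settings, 251 with its 8 libraries alone, and 428 to 1037 with 1 left out. Their mean gave 1831 calls, 4128 by voom, 3391 with the GC offset, and 1325 to 2468 with 1 left out. Low counts limit Timp3, Timp1 and Mmp14.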
